A study of Rattus norvegicus with 8 samples.

Results

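The way of a fatty acid through glia was followed here through 8 genes: Lpl for uptake, Fabp7 and Fabp5 for binding, Acsbg1 for activation, Plin2 for storage in the lipid droplet, Lipa and Abhd6 for hydrolysis, and Etfa for oxidation. They were taken by gene name from the authors' sheets of genes that differed between glia with many and glia with few lipid droplets. All 8 names were found, each once, among 1187 listed genes, and all 8 stood in the sheet of genes higher in droplet-rich glia. The groups were 4 samples of glia with high levels of lipid droplets (LD-high, the authors' +LD) and 4 samples with low levels (LD-low, the authors' -LD). Both came from cultured hippocampal glia of rats at postnatal day 0, grown in medium with 10% fetal bovine serum, and taken at 3 to 5 days in vitro. The cells were stained with Nile red and sorted by their fluorescence. Nile red is a dye of neutral lipid, so the groups were defined by staining and not by a treatment, and nothing in the labels ties the numbered samples to separate animals or cultures. Spread between samples, and with it each p-value, may therefore be technical.

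Fatty acids reach a cell free or are cut from lipoproteins at its surface, and travel through the cytosol on small binding proteins. Coupling to coenzyme A activates them, after which they are either esterified and stored in droplets, whose surface carries perilipins, or broken down in mitochondria and peroxisomes. Lipases of the cytosol and the lysosome free them again. Astrocytes are known to oxidise fatty acids and to form droplets, and microglia form them as well.

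The authors deposited 1 pooled level per gene and group, taken here as FPKM (fragments per kilobase of transcript and sequencing depth), with a p and a q from Cuffdiff. Levels of single samples were not used here, so no level carries an SD, and depth per sample is unknown. Of the 8 genes, 8 were called higher and 0 lower at q below 0.05 in the authors' deposited table, where 4.92% of 12981 tested genes were called higher. The 8 were picked from called genes, so nothing is read from that count. At q below 0.01 it was 4 of the 8 (2.29% of tested genes called higher, 1.98% lower), and at a log2 change of at least 1 it was 5 of the 8 (3.10% higher, 3.14% lower). Those 4 were Lpl, Plin2, Lipa and Abhd6, and Etfa was the fifth at the larger change. In the same table microglia markers were higher (12 of 20 symbols listed, 0 lower, summed level 531 FPKM in LD-high and 50.9 FPKM in LD-low glia) and neuron markers lower (12 of 17, 189.8 and 699 FPKM). Fibroblast, meningeal and mural markers (5 of 11, 220.2 and 71.5 FPKM) and endothelial markers (3 of 10, 41.0 and 13.0 FPKM) were higher too, and none of the called markers was listed at 0 in either group. In bulk samples, more cells of a type and more RNA per cell cannot be told apart. Of 16 astrocyte markers, the type for which such cultures are grown, 2 were listed, both higher (Slc39a12 at 33.5 and 19.2 FPKM, Slc4a4 at 28.1 and 16.4 FPKM). The other 14, among them Gfap and Aqp4, were not among the called genes and have no level here, so that the label could not be checked on them.

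Fabp7 had the highest level, Fabp5 the next, and the other 6 genes lay far below. Fabp7 and Fabp5 together had 3187 FPKM in LD-high glia and 1841 FPKM in LD-low glia, which made up 95.2% and 96.6% of the summed level of all 8. The other 6 genes summed to 160.1 FPKM in LD-high and 64.1 FPKM in LD-low glia, a 2.50-fold difference beside 1.73-fold for the pair of binding proteins. Among these 6 the highest and lowest levels lay 1.61-fold apart in LD-high glia, against 5.26-fold apart in LD-low glia, because Lpl stood far below the other 5 in LD-low glia. Without Lpl the spread of the remaining 5 was 1.47-fold in either group.

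**Figure D1:**
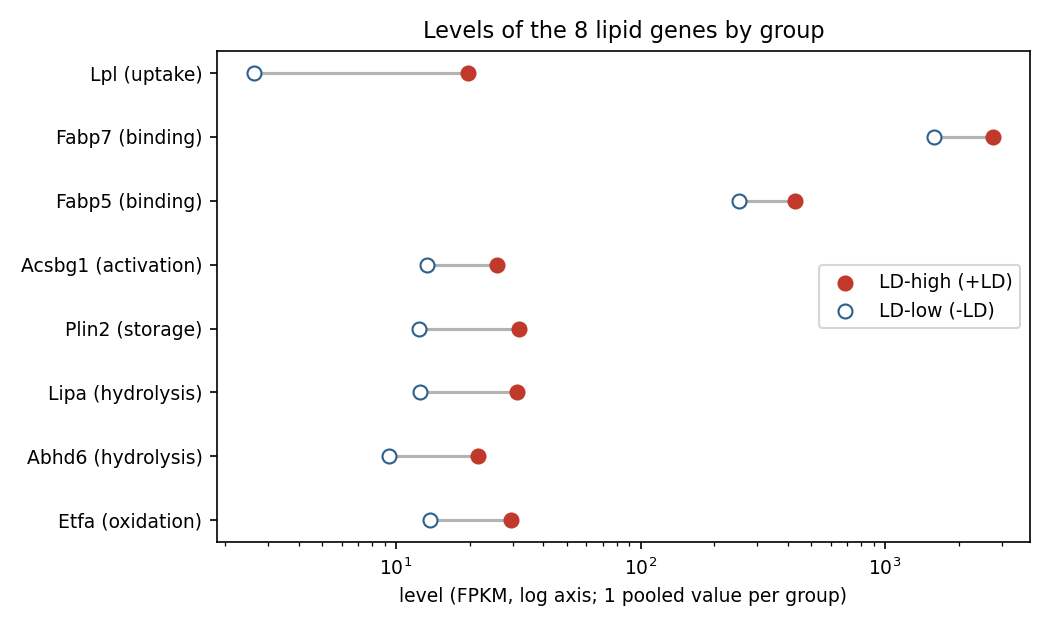
Pooled level of each of the 8 genes (x axis, FPKM, log axis) in LD-high glia (filled) and LD-low glia (open), ordered from uptake to oxidation. Every filled point lies to the right of its open point, with the widest gap for Lpl (19.7 and 2.62 FPKM) and both binding proteins far above the rest.

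Lpl, lipoprotein lipase, releases fatty acids from the triglyceride of lipoproteins at the cell surface. Its pooled level was 19.7 FPKM in LD-high glia and 2.62 FPKM in LD-low glia, the lowest of the 8 in both groups. The log2 change was 2.91 (7.52-fold, p = 5e-05, q = 0.00187) in the authors' deposited table. Among the 1187 listed genes Lpl ranked 470th by level in LD-high glia and 1039th in LD-low glia. This change exceeded that of 152 of 165 genes called higher at a like level (a geometric mean within 2-fold of its own), whose median was 1.42. Lpl was also the 1 gene of the 8 whose change lay within the range of the 12 called microglia markers, 1.96 to 4.41 on the log2 scale, and 4 of those markers changed less. Over the pair of group levels, the genes nearest to Lpl were Trem2 (18.6 and 2.56 FPKM in LD-high and LD-low glia, 0.09 log2 units away) and C1qb (21.4 and 2.43 FPKM, 0.16 units away), both on the marker list of microglia. How far microglia in the sorted samples account for the level of Lpl was not tested. The size of the change depended on the low level in LD-low glia: with 5 FPKM added to both levels the log2 change was 1.70. The gene (ENSRNOG00000012181) lies on chromosome 16, 22537056 to 22561496, in rn6.

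Fabp7 and Fabp5 encode the brain and the epidermal fatty acid binding protein, small cytosolic carriers of long-chain fatty acids. Fabp7 is a known product of radial glia and astrocytes. Its level was 2759 FPKM in LD-high glia and 1588 FPKM in LD-low glia, and it ranked 8th among the listed genes in both groups. Fabp5 had 428 FPKM in LD-high and 253 FPKM in LD-low glia and ranked 39th and 41st. Both rose by less than most called genes: the log2 change was 0.80 for Fabp7 (1.74-fold, p = 0.0015, q = 0.0237) and 0.76 for Fabp5 (1.70-fold, p = 0.00115, q = 0.0197) in the authors' deposited table. Of the genes called higher that had a level above 0 in both groups, 10.6% changed less than Fabp7 and 7.42% less than Fabp5. Genes called higher at a like level also had small changes near Fabp5, with a median of 0.88 over 41 genes, while all 6 near Fabp7 changed by more than it did. The ratio of Fabp7 to Fabp5 was 6.44 in LD-high and 6.29 in LD-low glia, so the balance between the 2 carriers differed by 1.02-fold. The changes of both carriers were close to those of the 2 called astrocyte markers, whose log2 changes were 0.80 (Slc39a12) and 0.78 (Slc4a4). Such small changes were not particular to astrocyte markers. H3f3a and Ppia, which are on no marker list, had log2 changes of 0.74 and 0.81. The part of astrocytes in the levels of both carriers was not tested. Processed copies of Fabp5 are known in the human and mouse genomes, and how reads were split among any copies in the rat is not given in the sources used here, which makes the level of Fabp5 uncertain. Fabp7 (ENSRNOG00000000814) lies on chromosome 20, 40769586 to 40773349, and Fabp5 (ENSRNOG00000049075) on chromosome 2, 93981656 to 93985378, in rn6.

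The 250 bases before the start of Fabp7 are shown because it is the most abundant of the 8 genes. They come from RefSeq, build GRCr8, chr20:37669356-37669605, plus strand, 5′ to 3′. Capitals mark the letters of CCAAT and of the nuclear receptor core site AGGTCA, read here on the opposite strand as ATTGG and TGACCT.
Fabp7: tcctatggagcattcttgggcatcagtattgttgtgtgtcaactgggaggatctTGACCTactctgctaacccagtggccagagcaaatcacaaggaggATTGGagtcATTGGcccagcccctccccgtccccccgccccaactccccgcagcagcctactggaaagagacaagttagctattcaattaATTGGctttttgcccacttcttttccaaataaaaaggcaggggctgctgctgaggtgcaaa
CCAAT occurred at 3 places, beginning 151, 142 and 61 bases before the start, and the core site at 1 place, 196 bases before it.

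Acsbg1, an acyl-CoA synthetase of the bubblegum family that is known from astrocytes, couples long-chain fatty acids to coenzyme A. Its level was 25.9 FPKM in LD-high glia and 13.4 FPKM in LD-low glia. The log2 change was 0.95 (1.94-fold, p = 0.00055, q = 0.0117) in the authors' deposited table. That was the smallest change of the 6 genes other than the binding proteins. Of 238 genes called higher at a like level, 165 changed more. Acsbg1 was the 1 listed gene of 11 acyl-CoA synthetase symbols, 9.09% beside 4.92% of all tested genes called higher. It was picked from the called genes, so nothing is read from that share. Neither Acsl3, a synthetase found on growing droplets, nor any other Acsl gene was among the called genes.

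Plin2 encodes perilipin 2, the coat protein that most cells put on their droplets. The level of its mRNA was 31.8 FPKM in LD-high glia and 12.4 FPKM in LD-low glia, with a log2 change of 1.36 (2.56-fold, p = 5e-05, q = 0.00187) in the authors' deposited table. This change was second only to that of Lpl and its level in LD-high glia was exceeded only by those of both binding proteins. In LD-low glia Etfa, Acsbg1 and Lipa had slightly higher levels than Plin2, and no order is read from such small differences. Plin2 changed more than 186 of 237 genes called higher at a like level. The list of the droplet coat and of droplet formation had 18 symbols, of which Plin2 was the 1 listed gene, 5.56% beside the 4.92% of all tested genes. Plin2 was picked from the called genes, so nothing is read from that share, and no other symbol of this list was listed. The gene (ENSRNOG00000007060) lies on chromosome 5, 104984414 to 105010857, in rn6.

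Lipa encodes the lysosomal acid lipase, which hydrolyses cholesteryl esters and triglycerides that reach the lysosome, also from droplets taken up by autophagy. Lipa had 31.3 FPKM in LD-high glia and 12.5 FPKM in LD-low glia, a log2 change of 1.33 (2.51-fold, p = 5e-05, q = 0.00187) in the authors' deposited table. Of 1096 listed genes with a symbol and a level above 0 in both groups, Lipa was the nearest to Plin2 over the pair of levels, 0.02 log2 units away. Rhoj, a small GTPase, was the second nearest to either gene (31.3 and 12.2 FPKM in LD-high and LD-low glia). The ratio of Plin2 to Lipa was 1.01 in LD-high and 0.99 in LD-low glia. Lipa (ENSRNOG00000019077) lies on chromosome 1, 252816527 to 252849904, in rn6.

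The sequences before the starts of Plin2 and Lipa are set side by side because no other pair of the 8 genes had such close levels in both groups. They are 250 bases each from RefSeq, build GRCr8, minus strand, 5′ to 3′, at chr5:106229019-106229268 for the first of 2 start sites of Plin2 and chr1:241470741-241470990 for Lipa. Capitals mark CACGTG, the core of the site of TFEB and related factors, and CCAAT, read on the opposite strand as ATTGG.
Plin2: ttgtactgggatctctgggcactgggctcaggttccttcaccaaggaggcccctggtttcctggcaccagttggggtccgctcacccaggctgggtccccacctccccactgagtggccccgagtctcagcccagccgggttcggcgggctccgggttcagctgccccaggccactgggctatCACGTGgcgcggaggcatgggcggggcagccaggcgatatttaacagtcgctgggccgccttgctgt
Lipa: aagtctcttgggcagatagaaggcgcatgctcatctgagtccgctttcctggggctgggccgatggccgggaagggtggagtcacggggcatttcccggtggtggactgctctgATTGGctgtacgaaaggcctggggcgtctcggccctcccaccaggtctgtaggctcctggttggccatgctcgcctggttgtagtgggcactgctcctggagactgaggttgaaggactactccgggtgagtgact
CACGTG began 67 bases before the start of Plin2 and was not in the window of Lipa. CCAAT began 136 bases before the start of Lipa and was not in this window of Plin2, so the 2 windows shared none of the motifs searched.

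Promoter windows of 300 bases, 250 before and 50 after the start, were at hand for 6 of the 8 genes, in 7 windows. Plin2 had more than 1 window. None was at hand for Lpl and Fabp5, so the counts below do not cover these genes. Both strands were searched for 8 motifs. CCAAT was in 6 of the 7 windows, beside 37.5% of 33469 rat promoter windows of the same length. For Plin2 it was only in the window of the other start site, where it lay after the start. The genes were few and picked from called genes, so no shared feature is read from this share. CACGTG was in 1 of 7 (Plin2, beside 6.42%) and AGGTCA in 1 of 7 (Fabp7, beside 16.2%). The direct repeat of PPAR and RXR, AGGTCA followed after 1 base by another AGGTCA, was in 0 of 7 (beside 0.0538%), and its looser form with AGGNCA in both places also in 0 (beside 0.415%). The longer TFEB site, CACGTG with GT before it and AC after it, was in 0 of 7 (beside 0.233%), as were TGACNNNGC (beside 12.1%) and TATAAA (beside 14.2%). The windows of these genes held between 47.3% and 65.7% G and C, beside a median of 51.7% over all windows. A match describes letters and not binding, and its absence says nothing of sites outside these windows.

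Abhd6 encodes a membrane hydrolase that cleaves monoacylglycerols, among them the endocannabinoid 2-arachidonoylglycerol. Its level was 21.7 FPKM in LD-high glia and 9.39 FPKM in LD-low glia, with a log2 change of 1.21 (2.31-fold, p = 0.0002, q = 0.00556) in the authors' deposited table. The ratio of Lipa to Abhd6 was 1.45 in LD-high and 1.33 in LD-low glia, and the 2 hydrolases together had 53.0 and 21.9 FPKM. Dagla, the main enzyme that makes 2-arachidonoylglycerol in neurons, moved the other way. It had 2.58 FPKM in LD-high glia and 6.16 FPKM in LD-low glia, with q = 0.0147 in the authors' deposited table, and the log2 change computed from these levels was -1.25. The ratio of Abhd6 to Dagla was therefore 8.39 in LD-high and 1.53 in LD-low glia. Dagla fell together with the 12 called neuron markers (median log2 change -3.32), and the part of neurons in its level was not tested.

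Etfa encodes the alpha subunit of the electron transfer flavoprotein, which takes electrons from the acyl-CoA dehydrogenases of mitochondria. Etfa had 29.6 FPKM in LD-high glia and 13.8 FPKM in LD-low glia, a log2 change of 1.10 (2.15-fold, p = 0.00115, q = 0.0197) in the authors' deposited table. Etfa was the 1 listed gene among 35 symbols of fatty acid oxidation and electron transfer, 2.86% beside 4.92% of all tested genes. Since Etfa was itself picked from the called genes, that share is not read as a result. Its partner subunit Etfb, the receiving dehydrogenase Etfdh and the gatekeeper of mitochondrial uptake Cpt1a were not among the called genes and have no level here. Etfa and Acsbg1 both lie on chromosome 8 of rn6, at 60028789 to 60086403 and 59184113 to 59239954, 0.789 Mb apart, and 0 other called genes lie between them. The ratio of Etfa to Acsbg1 was 1.14 in LD-high and 1.03 in LD-low glia.

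**Figure D2:**
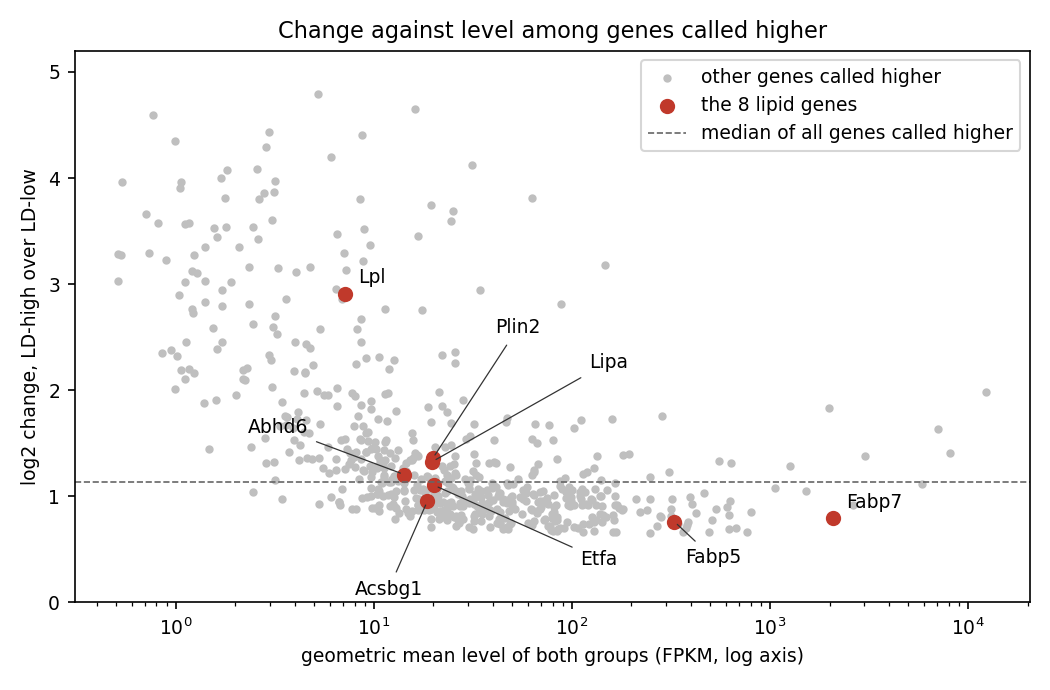
Log2 change of LD-high over LD-low glia (y axis) against the geometric mean level of both groups (x axis, FPKM, log axis) for the 633 genes called higher with a level above 0 in both groups, with the 8 lipid genes in red. Lpl lies high at a low level (2.91), Fabp7 and Fabp5 lie low at high levels (0.80 and 0.76), and the other 5 lie near the dashed median of 1.13.

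Ratios between steps cancel any scaling between the groups, and all 28 pairs of the 8 genes were computed. In each ratio the mRNA of a single gene stands for a step, and the activity of the step was not measured. The 7 ratios of Lpl to another gene were 2.93 to 4.43 times as large in LD-high as in LD-low glia. The ratio of Lpl to Plin2, uptake against storage, was 0.621 in LD-high and 0.212 in LD-low glia. That of Lpl to Fabp5 was 0.0460 in LD-high and 0.0104 in LD-low glia, the widest difference of the 28. The other 21 ratios differed between the groups by 1.02-fold to 1.51-fold, and 20 of them by less than 1.5-fold. The widest of these was Plin2 over Fabp5, storage against binding, with 0.0741 in LD-high and 0.0491 in LD-low glia. Storage against oxidation, Plin2 over Etfa, was 1.07 in LD-high and 0.899 in LD-low glia, and hydrolysis against oxidation, Lipa over Etfa, was 1.06 and 0.905. In 5 pairs the gene with the higher level was not the same in both groups, and those pairs were Plin2 and Lipa each against Acsbg1 and Etfa, and Plin2 against Lipa. These 5 ratios differed between the groups by only 1.02-fold to 1.32-fold, and no order is read from them.

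No replicate values stood behind these ratios, so they carry no test. As a rough guide to their error, a two-sided p can be turned into the normal deviate it corresponds to, which gives a standard error of the log2 change. In the authors' deposited table this came to 0.25 for Fabp7, 0.23 for Fabp5, 0.28 for Acsbg1, 0.32 for Abhd6 and 0.34 for Etfa. For the 3 genes at the smallest p that the table holds it is an upper limit, 0.72 for Lpl, 0.33 for Plin2 and 0.33 for Lipa. With genes taken as independent, the 10 ratios among the first 5 genes differed between groups by at most 1.11 of their own standard errors. For the 11 ratios without Lpl that involve Plin2 or Lipa only lower limits can be given, from 0.06 standard errors (Plin2 to Lipa) to 1.45 (Plin2 to Fabp5). The 7 ratios of Lpl differed by at least 1.96 standard errors (Lpl to Plin2) to at least 2.84 (Lpl to Fabp5).

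**Figure D3:**
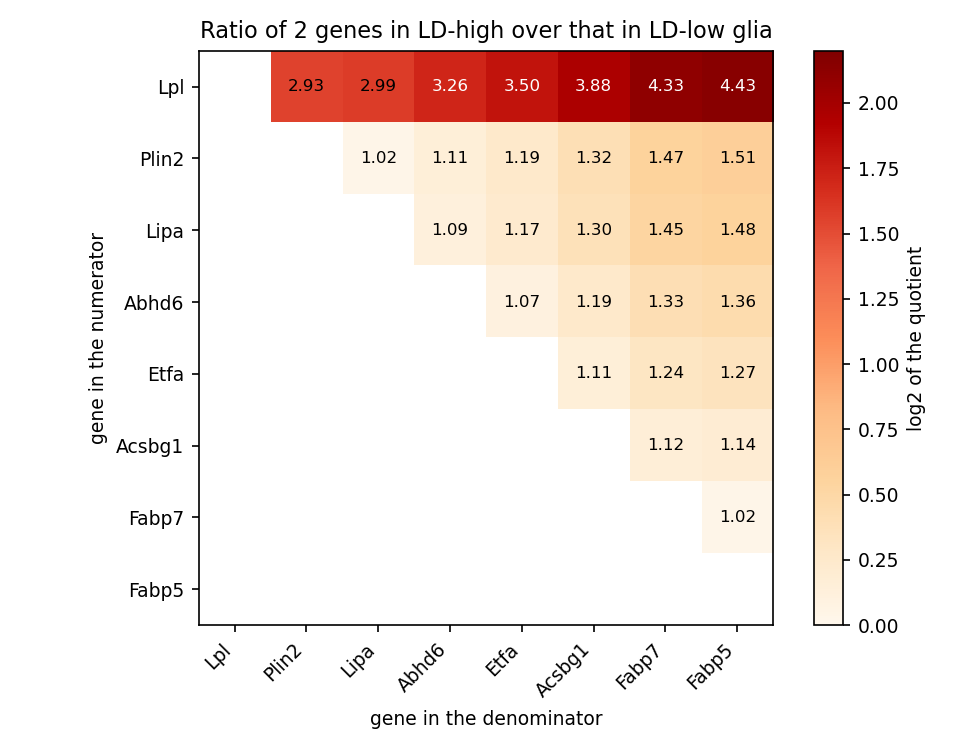
Each cell gives the ratio of the gene in the row to the gene in the column in LD-high glia, divided by the same ratio in LD-low glia; darker cells are larger on a log2 scale. The Lpl row runs from 2.93 to 4.43, and the other 21 cells lie between 1.02 and 1.51.

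The 8 genes as a set had a median log2 change of 1.15, beside 1.13 for the 633 genes called higher with a level above 0 in both groups. For all called genes with such levels the median was 0.77. That value mixes positive changes of higher genes with negative changes of lower genes, and is no typical size of change. Of the 8, 5 changed more than 2-fold, beside 402 of the 633. Their median level was 30.5 FPKM in LD-high and 12.9 FPKM in LD-low glia, beside 31.8 and 14.1 FPKM for all genes called higher.

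The 7 lists of lipid genes with 131 symbols held 3 called genes besides the 8. They were 2 higher and 1 lower of 123 other symbols, 1.63% and 0.813%, where 4.92% and 4.22% of all tested genes were called. The shares have unlike bases, since the 123 symbols leave out the 8 called genes and include any that were not tested. Nothing is therefore read from the difference. Dbi, the acyl-CoA binding protein, had 617 FPKM in LD-high and 389 FPKM in LD-low glia, a log2 change of 0.67 with q = 0.0498 in the authors' deposited table, close to the threshold. The ratio of Fabp7 to Dbi was 4.47 in LD-high and 4.08 in LD-low glia. Mitf, a transcription factor of the family of TFEB, had 9.07 FPKM in LD-high and 3.89 FPKM in LD-low glia (q = 0.0158 and log2 change 1.22 in the authors' deposited table). Dagla was the lower one. Of the 16 symbols of fatty acid uptake and binding other than Lpl, Fabp7 and Fabp5, 1 was called, Dbi. Of 18 symbols for triglyceride and cholesteryl ester synthesis, 0 were listed in either direction by Cuffdiff in the authors' deposited table, and their unadjusted p-values were not at hand. A gene that is not listed either missed the threshold or was not tested.

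**Figure D4:**
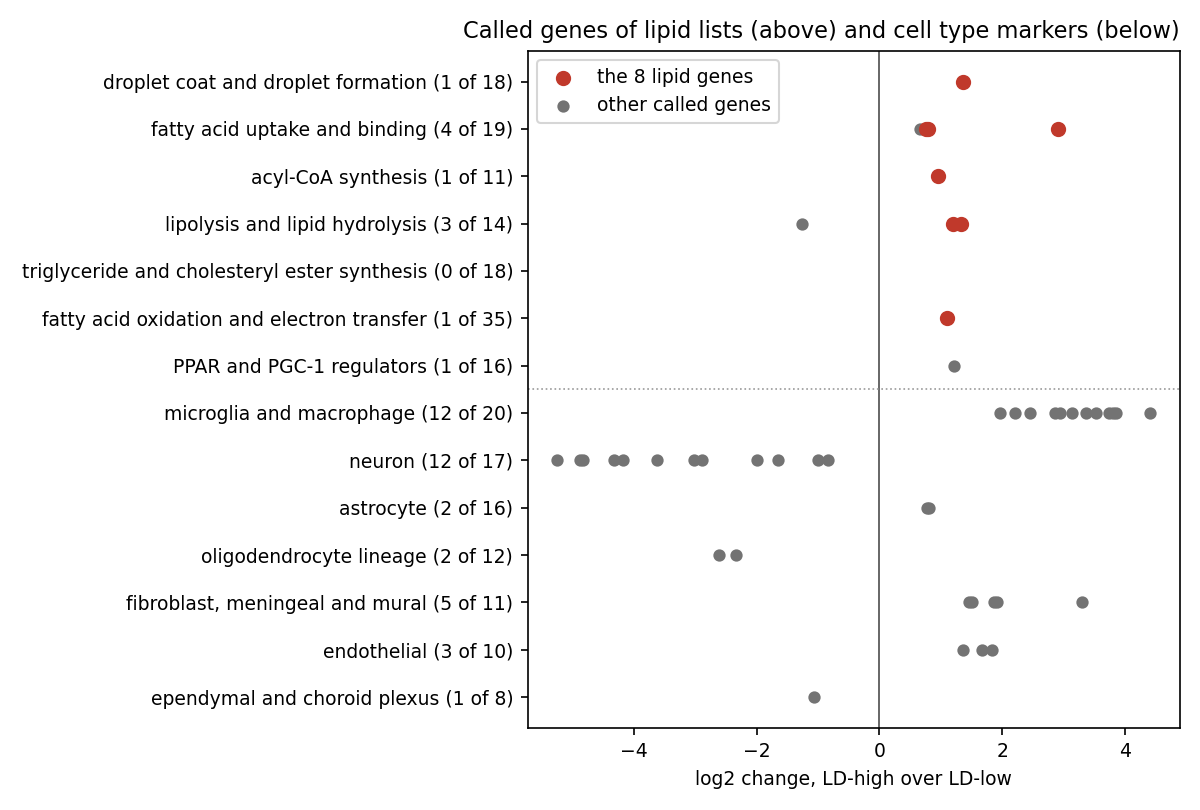
Log2 change of LD-high over LD-low glia (x axis) for every listed gene of 7 lipid lists (above the dotted line) and 7 cell type marker lists (below), with the number listed of all symbols in brackets and the 8 lipid genes in red. Lpl at 2.91 lies in the range of the microglia markers, the other 7 lie between 0.76 and 1.36, and Dagla at -1.25 is the 1 lipid gene on the lower side.

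The smallest change among the 12 called microglia markers was 1.96 on the log2 scale, and 7 of the 8 genes lay below it. These 7 also lay below the smallest change among the 5 called fibroblast, meningeal and mural markers, 1.46. Among the 3 called endothelial markers the smallest change was that of Flt1, 1.359, nearly the same as 1.357 for Plin2 and 1.328 for Lipa. The largest increases among the microglia markers were those of Cd53, a leukocyte tetraspanin (40.3 and 1.90 FPKM in LD-high and LD-low glia), Ptprc, the antigen CD45 (10.6 and 0.735 FPKM), Fcer1g, a chain of immune receptors (235 and 16.8 FPKM), and Aif1, the protein Iba1 (71.1 and 5.31 FPKM). The part of these cell types in the levels of the 8 genes was not tested.

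The authors also deposited gene ontology terms for their called genes, made with PANTHER. Of 228 terms for the higher genes, "response to lipid" stood at a corrected p of 1.56e-07 (52nd by p) and "cellular response to lipid" at 0.0392 (219th) in the authors' deposited table. Those for oxidative stress were "response to oxidative stress" at 1.94e-07 (55th) and its cellular form at 0.0069 (163rd) in the same table. Among the 104 terms for the lower genes, 0 named lipids, fatty acids, lysosomes or mitochondria. Terms of fatty acid or mitochondrial metabolism were not among those for the higher genes either. The deposited tables do not say which genes made up a term.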

How the data were processed

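Per the labels' protocols, RNA was isolated with a PicoPure kit and its cDNA was amplified with an Ovation kit, which each level therefore includes. Reads were processed with Bowtie2 and Cuffdiff on build rn6, per the submitters' processing notes, with annotation, strand setting and versions not given in the sources used here. For each called gene the authors deposited a level in LD-high and in LD-low glia, the log2 fold change and its p-value and q-value, per the file headers. No unit is named for the levels, and those deposited are read as FPKM because Cuffdiff reports that unit. The authors' GO p-values are corrected by Bonferroni, per the file headers. The number of per-sample columns was 0, so no test between samples was run, and precision is known only through the authors' p-value.

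Log2 changes were computed from the levels, and in the sheet of higher genes lay within 9.94e-06 of the log2 values that the authors deposited. The log2 column of the sheet of lower genes was not used, since 20 of its cells hold an error text. The number of tested genes, 12981, was recovered from q times rank over p, which lay between 12980.96 and 12981.04 at 91 distinct p-values, a step tested on simulated data. A gene listed at 0 in 1 group (26 genes) has no fold. Starts of loci were raised by 1, since Cuffdiff counts from 0. The members, lists, motifs and rules were chosen with earlier results of these data known. Named are the 8 genes, all called genes of the lipid lists, up to 4 of each marker list, and the 2 genes nearest to a member by Euclidean distance of log2 levels. A planned comparison of protein sequences was not made here. The alternatives tried were a q of 0.01, a log2 change of at least 1, minimum levels of 5 and 20 FPKM and pseudocounts of 1 and 5 FPKM. Python 3.11.15 with pandas 2.3.3 was used.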

Additional observations from a re-analysis of the deposited data

How the results depend on the processing

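Adding 1 or 5 FPKM to both levels cannot turn a direction and changed only the size of the log2 changes. With q below 0.01 in the authors' deposited table, 4 of the 8 remained called higher (Lpl, Plin2, Lipa and Abhd6), where 2.29% of tested genes were, and with a log2 change of at least 1 it was 5, where 3.10% were. With 20 FPKM or more required in LD-high glia it was 7, without Lpl. With 5 FPKM added, the ratio of Lpl to Plin2 was 1.53 times as large in LD-high as in LD-low glia, against 2.93 without. At q below 0.01 the lists for acyl-CoA synthesis, fatty acid oxidation and PPAR regulators each had 0 called genes, hydrolysis had 0 lower and uptake and binding had 1 higher. At a log2 change of at least 1, uptake and binding had 1 and acyl-CoA synthesis 0. These settings only narrow the list of called genes. No replicate could be left out, and both alternatives that needed values per sample were not run. No paired analysis was possible because the deposited levels are pooled by group. The sample titles do number the replicates in each group, but do not say whether equal numbers belong together.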

Other observations

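Other called genes of lipid handling, chosen after their values were seen, stood on both sides. Genes of 2 other lysosomal proteins were higher in LD-high glia. Npc2, which carries cholesterol freed in the lysosome, had 188.7 FPKM in LD-high and 90.0 FPKM in LD-low glia (q = 0.00187, log2 change 1.07 in the authors' deposited table). Psap, the precursor of the saposins that help to degrade sphingolipids, had 173.2 and 100.9 FPKM in LD-high and LD-low glia (q = 0.0140, log2 change 0.78 in the authors' deposited table). Pla2g4a, a phospholipase that frees arachidonic acid, had 6.65 FPKM in LD-high and 1.32 FPKM in LD-low glia (q = 0.00841, log2 change 2.33 in the authors' deposited table), and Ptgs1, a cyclooxygenase, had 6.71 and 1.38 FPKM (q = 0.00640, log2 change 2.29 in the same table). Cyp7b1, an oxysterol hydroxylase, had 28.2 FPKM in LD-high and 12.5 FPKM in LD-low glia (q = 0.00640, log2 change 1.18 in the authors' deposited table).

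On the lower side were Lrp8, a receptor of apolipoprotein E and reelin, with 8.19 FPKM in LD-high and 20.6 FPKM in LD-low glia (q = 0.00187 in the authors' deposited table, log2 change computed from the levels -1.33), and Smpd3, a neutral sphingomyelinase, with 1.09 and 4.32 FPKM (q = 0.00187 in the same table, computed log2 change -1.99). The changes of Pla2g4a and Ptgs1 lay within the range of the called microglia markers, 1.96 to 4.41, and the part of microglia in them was not tested.

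The genes nearest to the remaining members over the pair of group levels were H3f3a and Ppia for Fabp5, Flrt2 and Dennd6a for Acsbg1, Pcdh18 and Cndp2 for Abhd6, and Lcorl and Lin54 for Etfa, each at most 0.09 log2 units away over 2 pooled levels. Fabp7 had no close neighbour: Mt-nd4 lay 0.74 log2 units away and Bgn 1.09 units away.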
